A study of Mus musculus with 6 samples.

Results

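Serotonin made in the lung and gut acts on pulmonary vessels, and the genes that make, carry, sense and degrade it were followed in whole lung of mice with a mutant BMP receptor. The set held 7 genes: Tph1, Slc6a4, Htr1b, Htr2a, Htr2b, Maoa and Maob. Members were all probe sets whose only gene symbol in the platform annotation was one of these, which gave 8 probe sets for 6 genes among 45101 probe sets on the array and 18193 genes with such a probe set. Htr2a was not analysed here. Of the 8 probe sets, 6 were bright enough to be tested in the main fit and 2, for Tph1 and Htr2b, were dim.

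Each Affymetrix Mouse Genome 430 2.0 array held RNA from the whole lung of 1 FVB/N mouse, and each of 3 groups had 2 mice. The R899X mice were heterozygous for SM22-rtTA and for TetO7-BMPR2-R899X, a transgene for a truncated receptor of bone morphogenetic proteins that doxycycline switches on. Right ventricular systolic pressure (RVSP) at death was substantially raised in the high RVSP mice and near normal in the normal RVSP mice. Control mice carried SM22-rtTA alone. Every mouse, controls included, was fed doxycycline for 9 weeks starting at the age of 4 weeks, so tissue was taken at 13 weeks. The series design calls all mice female, although the label of control 1 names no sex. SM22 is the smooth muscle gene Tagln, so its promoter directs the transgene to smooth muscle, one of many cell types in a lung homogenate.

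Serotonin is made from tryptophan, and outside the brain the slow step is run by tryptophan hydroxylase 1, the product of Tph1. The transporter encoded by Slc6a4 carries serotonin into platelets, pulmonary endothelium and smooth muscle, where it can act as a mitogen. Receptors on the cell surface, among them those encoded by Htr1b and Htr2b, take part in vasoconstriction and remodelling, and the monoamine oxidases encoded by Maoa and Maob degrade serotonin inside cells. The pathway has long been studied in pulmonary hypertension, in patients and in rodent models.

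Array medians lay between 128 and 141 intensity units. Sftpc, a surfactant gene of alveolar type 2 cells, read 26212 to 40876 over the 6 arrays. The brightest Bmpr2 probe set lay between 15398 and 19768 and Tagln between 4115 and 5622, and whether any Bmpr2 probe set reads the transgene is not given in these sources. Control 1 and normal RVSP 1 stood farthest from the other arrays, with a mean root mean square log2 distance to the other arrays of 0.492 for normal RVSP 1 and 0.496 for control 1, against at most 0.420 for the rest. They also had the highest 3'/5' ratios of the beta-actin control probe sets, 1.64 in normal RVSP 1 and 1.89 in control 1, against 1.27 to 1.45. The Gapdh 3'/5' ratio did not single them out: it was 0.721 and 0.740 in the high RVSP mice, 0.700 and 0.875 in the normal RVSP mice and 0.973 and 1.03 in the control mice, lowest on normal RVSP 1 and highest on control 2. Differences are given on the log2(intensity + 16) scale with standard errors from limma, and 2 mice per group limit the precision of every value. Levels of different probe sets are not compared with each other.

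None of the member probe sets passed the test in any comparison (limma with Benjamini-Hochberg adjustment at 0.05, with 0% of all 27022 tested probe sets called in each, and 0% of 45037 without the filter). What can be described are the values in each mouse. In R899X high RVSP against control 0 of 6 tested members were called and the smallest adjusted p of a member was 0.865. In R899X normal RVSP against control it was 0 of 6, with 0.987 as the smallest, and among R899X mice, high against normal RVSP, 0 of 6 with 0.9996. All R899X against control also gave 0 of 6, with 0.832 as the smallest. At an unadjusted limma p under 0.05 there was 1 of 6 in normal RVSP against control, beside 4.34% of all tested probe sets. This 1 was an Htr1b probe set close to the filter, which it passed in part through the controls. The count was 0 of 6 in high RVSP against control (beside 5.65%), in high against normal RVSP (2.62%) and in all R899X against control (5.92%). The comparisons with control share the 2 control arrays, so they are not independent of each other. An exact permutation test cannot go below p = 0.333 with 2 against 2 mice, or below 0.0667 with 4 against 2.

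**Figure D1:**
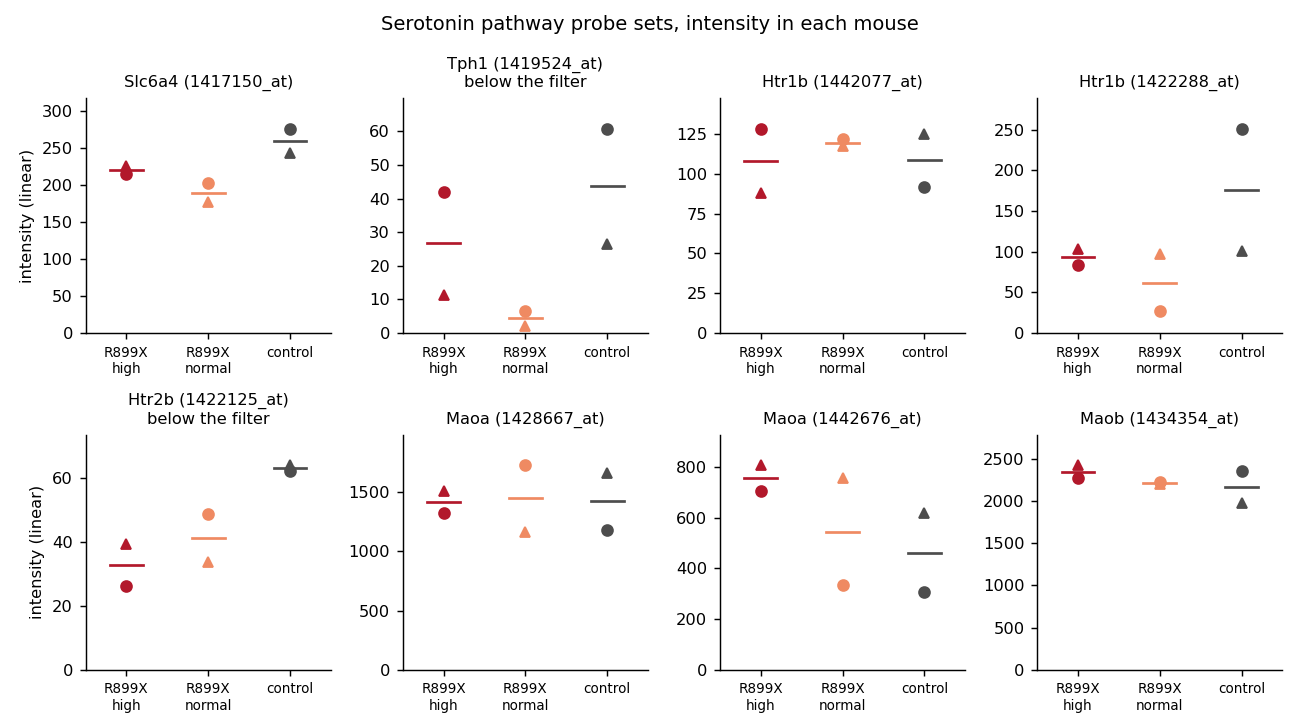
Intensity on a linear scale (y axis, from 0) of the 8 probe sets in each mouse, by group (x axis); circles are replicate 1, triangles replicate 2 and bars the group mean. Slc6a4 and Htr2b lay below both control mice in all 4 R899X mice, while the Maob values of all groups lay between 1985 and 2427.

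Tph1, the synthetic enzyme, was read by 1 dim probe set, 1419524_at. It gave 41.9 and 11.4 in the high RVSP mice, 6.60 and 2.07 in the normal RVSP mice and 60.8 and 26.6 in the control mice. Both normal RVSP mice lay below every other mouse, and the high RVSP mice overlapped with the controls. The highest of these values lies under the intensity of 74.9 at which the filter on dim probe sets was set, and 15.7% of probe sets were dimmer than this one, so these values cannot be read as detected Tph1 RNA. In the fit of all 45037 probe sets, the difference of normal RVSP from control was -1.50 ± 0.48 (95% interval -2.61 to -0.40, adjusted p = 0.972). Tph1 was under an unadjusted p of 0.05 there, as were 4.63% of all probe sets, and in all R899X against control (-1.01 ± 0.42, adjusted p = 0.876), as were 5.57%. The last value was -0.59 without control 1. With a pseudocount of 1 in place of 16 the difference of normal RVSP from control was -3.10. The high RVSP mice stood at -0.52 ± 0.48 relative to control (adjusted p = 0.933), at 0.02 without high RVSP 2, at -1.06 without high RVSP 1, at -0.10 without control 1 and at -0.95 without control 2. High RVSP stood 0.98 ± 0.48 above normal RVSP (adjusted p = 0.9997), or 2.25 with a pseudocount of 1. Without high RVSP 1 it was 0.44 and without high RVSP 2 it was 1.52. The median of all probe sets below the filter was 33.3 on control 1 and 24.8 to 28.1 on the other 5 arrays. Of these dim probe sets 20% had both normal RVSP mice below both controls, as Tph1 and Htr2b did, and 18.8% had both high RVSP mice above both normal RVSP mice, as Tph1 did.

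Slc6a4, the plasma membrane transporter, was read by 1 probe set, 1417150_at. Its intensities were 215 and 225 in the high RVSP mice, 202 and 177 in the normal RVSP mice and 276 and 242 in the control mice. The 3 groups did not overlap at any point, with the controls highest and the normal RVSP mice lowest. The share of all probe sets in which the 3 groups separate was not counted. In bulk tissue, fewer cells of a type and less RNA per cell cannot be told apart. Normal RVSP differed from control by -0.42 ± 0.22 (95% interval -0.93 to 0.08, adjusted p = 0.987). For high RVSP against control the difference was -0.22 ± 0.22 (-0.72 to 0.28, adjusted p = 0.922), and -0.13 without control 1. Both high RVSP mice below both controls was found for 1 of 6 tested members, this one, beside 18.2% of all tested probe sets. The mean of both R899X groups stood at -0.32 ± 0.19 relative to control (-0.76 to 0.12, adjusted p = 0.855), and the high RVSP mice at 0.20 ± 0.22 relative to the normal RVSP mice (adjusted p = 0.9996), or 0.11 without normal RVSP 2. Slc6a4 was the only 1 of the 6 tested members with all 4 R899X mice below both controls, a separation that 7.71% of all tested probe sets showed. The interval for each comparison includes 0.

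The marker lists of the cells named above for this transporter, pulmonary endothelium, platelets and smooth muscle, were set beside Slc6a4. The summed intensity of 7 endothelial markers was 39328 and 35208 in the high RVSP mice, 40677 and 36329 in the normal RVSP mice and 35630 and 38957 in the control mice, so the groups overlapped. All 7 were above the filter and none was at 0. The 7 platelet and megakaryocyte markers summed to 4868 and 7191 in the high RVSP mice, 4691 and 4751 in the normal RVSP mice and 3370 and 4543 in the control mice. All 4 R899X mice lay above both controls in this sum, whereas they lay below both in Slc6a4. The differences from control were above 0 for 7 of 7 markers in both R899X groups, and 0 were called. In normal RVSP the median was 0.21, with Gp5 at 0.0006 and Gp1bb at 0.06. Over all genes 46.1% were above 0 in high RVSP and 53.7% in normal RVSP. The other probe set of Gp1bb, a dim one, stood at 0.41 in high RVSP and -0.38 in normal RVSP. Pf4, platelet factor 4, gave 1261 and 1672 in the high RVSP mice, 1256 and 1127 in the normal RVSP mice and 968 and 1082 in the control mice. The 6 smooth muscle markers, all above the filter, summed to 15646 and 14792 in the high RVSP mice. They summed to 18566 and 16196 in the normal RVSP mice and 13104 and 15766 in the control mice. Both normal RVSP mice lay above both controls in this sum, and the high RVSP mice overlapped with the controls. The part of any of these cell types in the Slc6a4 values was not tested.

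Htr1b encodes a receptor that mediates constriction of pulmonary arteries, and its 2 probe sets did not follow each other. The first, 1442077_at, gave 128 and 88.0 in the high RVSP mice, 122 and 118 in the normal RVSP mice and 92.0 and 125 in the control mice. High RVSP mice and controls spanned about the same range, with the normal RVSP mice inside it. Its difference from control was -0.01 ± 0.29 in high RVSP (95% interval -0.69 to 0.67) and 0.13 ± 0.29 in normal RVSP (-0.54 to 0.81), with adjusted p of 0.998 and 0.991. The second, 1422288_at, gave 84.1 and 103 in the high RVSP mice, 26.5 and 96.8 in the normal RVSP mice and 251 and 101 in the control mice. The 4 mice other than control 1 and normal RVSP 1 lay close together, and those 2 arrays were the highest and the lowest. Of all probe sets 44.0% were dimmer than 1422288_at, beside the 40% that the filter left out. Its mean intensity was 61.6 in normal RVSP, under the filter intensity of 74.9, 93.4 in high RVSP and 176 in control. It passed the filter in part through the controls. Normal RVSP differed from control by -1.35 ± 0.53 on this probe set (-2.58 to -0.13, adjusted p = 0.987). Without control 1 the difference was -0.76, and without control 1 and normal RVSP 1 together, an alternative chosen after seeing the data, it was -0.05. In high RVSP the difference was -0.70 ± 0.53 (adjusted p = 0.889), and -0.10 without control 1. The arrays of normal RVSP and control did not overlap on 1422288_at or on Slc6a4, 2 of 6 tested members, beside 15.1% of all tested probe sets that lay lower in this way.

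Htr2b encodes a Gq-coupled receptor that mouse studies have linked to vascular remodelling under hypoxia. Its single probe set, 1422125_at, was dim, with 30.2% of probe sets dimmer. It gave 26.4 and 39.3 in the high RVSP mice, 48.9 and 33.6 in the normal RVSP mice and 62.2 and 64.0 in the control mice. All 4 R899X mice lay below both controls, and the R899X groups overlapped with each other. In the fit of all 45037 probe sets, high RVSP differed from control by -0.71 ± 0.36 (95% interval -1.54 to 0.12, adjusted p = 0.916) and normal RVSP by -0.48 ± 0.36 (-1.31 to 0.35, adjusted p = 0.972). High RVSP stood at -0.23 ± 0.36 relative to normal RVSP, and both R899X groups together at -0.59 ± 0.31 relative to control (-1.31 to 0.12, adjusted p = 0.877). Without normal RVSP 2, normal RVSP stood at -0.28 relative to control. The difference between the R899X groups was -0.036 without normal RVSP 1, -0.039 without high RVSP 1, and -0.42 without the second mouse of either. Of all probe sets below the filter, 8.48% had the 4 R899X mice below both controls, and 18.7% had both high RVSP mice below both controls. Htr2b also lay under the filter intensity of 74.9 on every array.

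**Figure D2:**
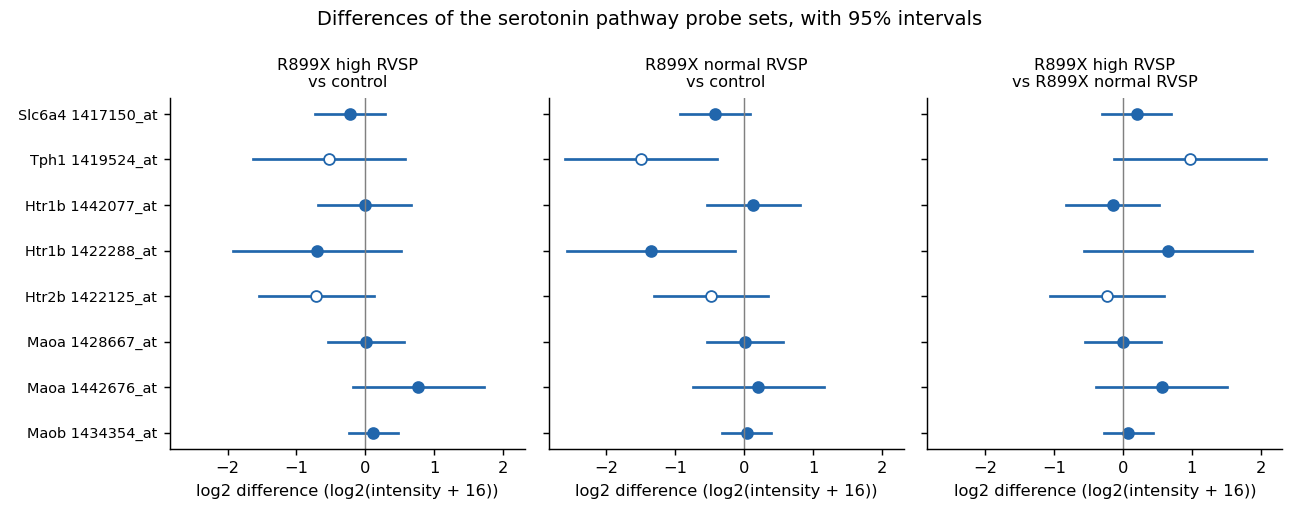
Log2 differences of the 8 probe sets (x axis, on the log2(intensity + 16) scale) with 95% intervals from limma, for 3 comparisons of 2 against 2 mice; filled points come from the fit of 27022 probe sets and open points, for the dim Tph1 and Htr2b, from the fit of 45037. The intervals of Tph1 (-2.61 to -0.40) and Htr1b 1422288_at (-2.58 to -0.13) in normal RVSP against control do not reach 0 before adjustment, and all others include it.

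Slc6a4 and Htr2b were the members whose probe sets lay below both controls in all 4 R899X mice, and their promoter windows are shown for that reason. Each runs from 250 bases before an annotated start to 50 bases after it, 5′ to 3′ on the gene's strand, from RefSeq on build GRCm38.p6. Slc6a4 is at chr11:76998347-76998646 on the plus strand and Htr2b at chr1:86111931-86112230 on the minus strand, where the start used lies inside the annotated gene. Capitals mark GGCGCC, an element that BMP-regulated Smads bind, and CAGAC, the core of a Smad box, each searched on both strands.
Slc6a4: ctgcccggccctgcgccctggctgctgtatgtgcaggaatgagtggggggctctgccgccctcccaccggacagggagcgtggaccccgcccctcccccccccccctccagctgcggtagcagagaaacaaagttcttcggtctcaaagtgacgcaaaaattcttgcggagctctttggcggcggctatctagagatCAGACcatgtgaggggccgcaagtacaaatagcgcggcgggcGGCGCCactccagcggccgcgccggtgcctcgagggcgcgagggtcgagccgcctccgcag
Htr2b: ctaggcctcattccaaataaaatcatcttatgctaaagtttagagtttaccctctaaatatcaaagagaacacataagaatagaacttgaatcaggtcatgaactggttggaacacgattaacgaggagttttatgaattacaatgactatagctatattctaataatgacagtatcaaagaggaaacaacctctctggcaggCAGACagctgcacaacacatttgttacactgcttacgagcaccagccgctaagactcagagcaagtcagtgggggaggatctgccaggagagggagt
The Slc6a4 window held 1 GGCGCC and 1 CAGAC and had a GC content of 67.7%, while the Htr2b window held 0 GGCGCC and 1 CAGAC at 41% GC. Of 32851 RefSeq windows of 300 bases, 11.9% held GGCGCC and 49.6% held CAGAC, so neither match sets these promoters apart. The Slc6a4 window also held 3 copies of the GC box GGGCGG, which 35.7% of windows contain, and neither window held TATAAA, found in 13.6%. Windows existed for 6 of the 7 genes. GGCGCC and CAGAC were found 1 and 1 times for Htr1b, 0 and 2 times for Htr2a and 0 and 0 times for Maoa. For Tph1, 1 window held 0 and 1 and the other held 2 and 2. Matches were thus not confined to Slc6a4 and Htr2b. These are matches of letters and were not measured as binding.

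Maoa encodes monoamine oxidase A, the form with the higher affinity for serotonin. Its brighter probe set, 1428667_at, gave 1325 and 1510 in the high RVSP mice, 1726 and 1166 in the normal RVSP mice and 1182 and 1664 in the control mice. The high RVSP mice lay inside the span of both other groups. The difference from control was 0.01 ± 0.24 in high RVSP (95% interval -0.54 to 0.57) and 0.02 ± 0.24 in normal RVSP (-0.54 to 0.57), with adjusted p of 0.998 and 0.997. The intervals leave room for a difference of more than 0.5 on the log2 scale in either direction.

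The other Maoa probe set, 1442676_at, gave 705 and 807 in the high RVSP mice, 335 and 755 in the normal RVSP mice and 305 and 618 in the control mice. Both high RVSP mice lay above both controls, the 1 of 6 tested members higher in this way, beside 19.1% of all tested probe sets. The low values were those of control 1 and normal RVSP 1, the arrays that stood apart from the rest and had the highest 3'/5' actin ratios, though not the highest Gapdh ratios. High RVSP differed from control by 0.77 ± 0.41 (-0.18 to 1.72, adjusted p = 0.865), or 0.28 without control 1. Relative to normal RVSP the difference was 0.57 ± 0.41 (adjusted p = 0.9996), and -0.0022 without normal RVSP 1. A Bmpr2 probe set, 1419616_at, had the same 2 arrays low, at 657 in normal RVSP 1 and 436 in control 1, against 1928 to 2170 on the other R899X arrays and control 2. The other Bmpr2 probe sets were not low on both: 1434310_at was highest on these 2 arrays, at 18835 in normal RVSP 1 and 19768 in control 1, and 1441652_at read 460 in normal RVSP 1, its highest, and 302 in control 1, its lowest. The part of RNA quality in the Maoa values was not tested.

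**Figure D3:**
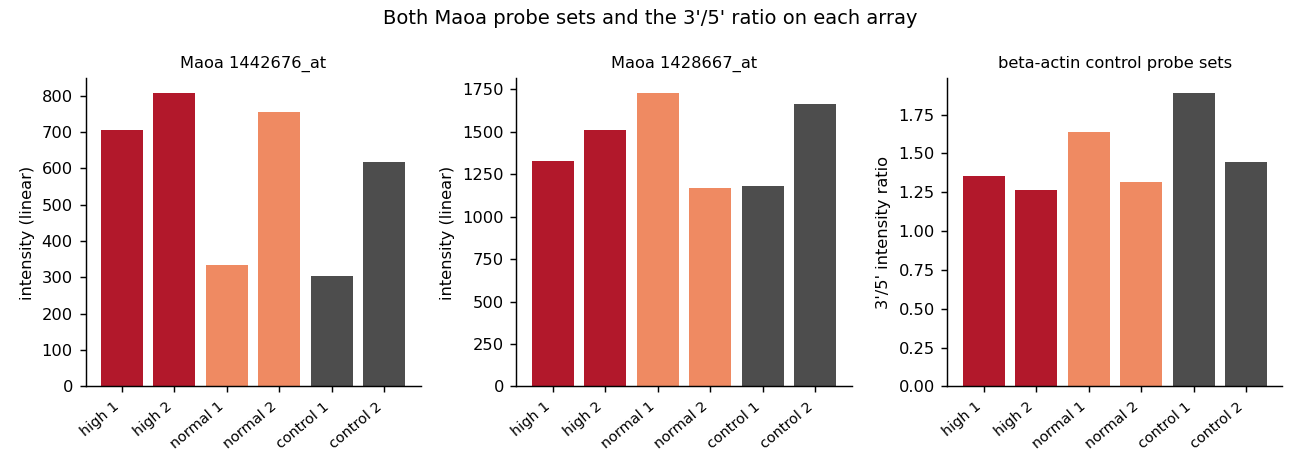
Intensity of both Maoa probe sets (linear, from 0) and the 3'/5' intensity ratio of the beta-actin control probe sets on each of the 6 arrays (x axis), coloured by group. Normal RVSP 1 and control 1 have the lowest values of 1442676_at, 335 and 305, and the highest actin ratios, 1.64 and 1.89, while 1428667_at is 1726 and 1182 on them.

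Maob encodes monoamine oxidase B, which prefers other amines such as phenylethylamine. Its probe set, 1434354_at, gave 2270 and 2427 in the high RVSP mice, 2234 and 2210 in the normal RVSP mice and 2362 and 1985 in the control mice. The R899X mice all lay within or just above the span of the controls. High RVSP differed from control by 0.12 ± 0.16 (95% interval -0.24 to 0.47) and normal RVSP by 0.04 ± 0.16 (-0.32 to 0.39), with adjusted p of 0.945 and 0.996. High RVSP stood 0.08 ± 0.16 above normal RVSP (-0.28 to 0.44), and its 2 mice lay above both normal RVSP mice. Slc6a4 was the other tested member with that separation, 2 of 6, beside 16.7% of all tested probe sets. Maob had the narrowest intervals of the 8 probe sets.

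Cells known to make or store serotonin were looked at by their markers. Rodent mast cells contain it, and 5 of 9 mast cell markers were above the filter, and the sum over all 9 was 4696 and 5542 in the high RVSP mice, 5093 and 5760 in the normal RVSP mice and 5057 and 4676 in the control mice. Hdc, histidine decarboxylase, gave 1965 and 2062 in the high RVSP mice, 1571 and 2172 in the normal RVSP mice and 2047 and 1532 in the control mice. Pulmonary neuroendocrine cells also store serotonin. Only 2 of the 5 neuroendocrine markers with a probe set were above the filter, and the sums over all 5 lay between 432 and 450 in the high RVSP mice, 392 and 483 in the normal RVSP mice and 367 and 475 in the control mice. In the mast cell sum both normal RVSP mice lay above both controls and the high RVSP mice overlapped with both groups. Kit and Hdc, the brightest markers, weigh most in that sum. Kit read 2126 and 2882 in high RVSP mice, 2968 and 2896 in normal RVSP mice and 2163 and 2651 in controls. Of the 5 markers above the filter, 3 stood above 0 in normal RVSP against control and 2 below. Those below were Cpa3 at -0.82 ± 0.41 and Ms4a2 at -0.64 ± 0.29, so the sum does not stand for every marker. In the neuroendocrine sum all groups overlapped. No marker of either list was at 0.

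The wider pathway was described with 4 lists, each gene by its brightest probe set, and 0 genes passed in either direction in any comparison. Genes named from these lists were mostly picked for the size of their difference, so a separation of groups is partly a result of that choice. Of all tested probe sets, 19.1% had both high RVSP mice above both controls and 18.2% had them below. The share with both high RVSP mice above all 4 other mice, as described for some genes, was not counted. Of 11 other serotonin receptor genes 1 was above the filter, Htr2c, which gave 91.5 and 88.0 in the high RVSP mice, 89.3 and 68.3 in the normal RVSP mice and 104 and 116 in the control mice. It encodes a receptor best known from the brain. All 4 R899X values were below both controls, as in 7.71% of all tested probe sets. The difference from control was -0.25 ± 0.28 in high RVSP (adjusted p = 0.932) and -0.42 ± 0.28 in normal RVSP (adjusted p = 0.987). Its other probe set, a dim one, stood at 0.08 in high RVSP and -0.11 in normal RVSP against control. The other 10 receptor genes read between 0.860 and 107. Their differences were below 0 for 7 of 10 in high RVSP and 10 of 10 in normal RVSP against control, beside 54.9% and 58.6% of all probe sets below the filter. These counts depend on the choice of probe set: 6 of these genes had 7 other probe sets between them, of which 4 were above 0 in high RVSP and 5 in normal RVSP against control. Those of Htr1d, for one, stood at 0.22 and 0.51 in normal RVSP.

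Genes of synthesis, cofactor supply, storage and breakdown had 15 of 21 members above the filter. In high RVSP against control 8 differences were above 0 and 7 below, with a median of 0.02, beside -0.02 over all 12557 genes. In normal RVSP against control the split was 9 and 6, with a median of 0.04 beside 0.02. Gchfr, the feedback regulator of the enzyme that starts synthesis of tetrahydrobiopterin, the cofactor of tryptophan hydroxylase, gave 178 and 161 in the high RVSP mice, 154 and 81.6 in the normal RVSP mice and 80.5 and 69.7 in the control mice. All 4 R899X mice lay above both controls. For the high RVSP mice alone this was found in 19.1% of all tested probe sets, and for all 4 mice it was not counted. High RVSP differed from control by 1.03 ± 0.32 (adjusted p = 0.857) and normal RVSP by 0.50 ± 0.32 (adjusted p = 0.987). Slc18a2, the transporter that loads serotonin into vesicles and platelet granules, gave 141 and 153 in the high RVSP mice, 77.0 and 112 in the normal RVSP mice and 122 and 60.3 in the control mice. Both high RVSP mice lay above every other mouse, with a difference from control of 0.67 ± 0.35 (adjusted p = 0.865). The summed platelet markers were also highest in a high RVSP mouse, though Treml1 was highest in normal RVSP 2. The part of platelets here was not tested. Slc29a4, a membrane transporter of monoamines, stood at -0.36 ± 0.21 in normal RVSP against control (adjusted p = 0.987). It read 339 and 376 in the high RVSP mice, 317 and 256 in the normal RVSP mice and 396 and 347 in the control mice. Ido1, which diverts tryptophan to kynurenine and responds to interferon, gave 121 and 102 in the high RVSP mice, 130 and 214 in the normal RVSP mice and 322 and 93.6 in the control mice, so the groups overlapped.

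Of the signalling genes downstream of serotonin receptors, 20 of 24 were above the filter. The median difference was -0.05 in high RVSP and -0.07 in normal RVSP against control. Plcb1, a phospholipase C that Gq activates, gave 1766 and 1626 in the high RVSP mice, 1227 and 882 in the normal RVSP mice and 1108 and 891 in the control mice. Both high RVSP mice lay above the other 4. The difference was 0.76 ± 0.21 against control (adjusted p = 0.857) and 0.70 ± 0.21 against normal RVSP (adjusted p = 0.9996). Of its 4 other probe sets 1 had the opposite sign against control, and they ranged from -0.38 to 1.10. Itpr2, an inositol trisphosphate receptor that releases stored calcium, gave 614 and 395 in the high RVSP mice, 704 and 601 in the normal RVSP mice and 646 and 915 in the control mice. High RVSP differed from control by -0.62 ± 0.26 (adjusted p = 0.857), and 3 of its 5 other probe sets had the opposite sign.

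Genes reported to respond to serotonin in vascular cells had 10 of 12 members above the filter. Their median difference from control was 0.29 in high RVSP, with 7 above 0 and 3 below, and 0.08 in normal RVSP, with 6 and 4, beside -0.02 and 0.02 over all genes. Markers of several cell types also differed between these mice, with 0 called. In high RVSP against control the differences were above 0 for 7 of 7 platelet markers (median 0.50) and 6 of 6 fibroblast markers (median 0.20). Of all genes 46.1% were above 0. They were below 0 for 5 of 5 cardiac muscle markers above the filter (median -0.82). Also above 0 were 3 of 3 B cell markers (median 0.52) and 2 of 2 adipocyte markers above the filter (median 0.87). The dim adipocyte marker Lep stood at -0.64, and 5 of 6 alveolar epithelium markers were below 0 (median -0.06). The fibroblast count depends on the probe set. Col1a2 stood at 0.0006 and its other probe sets at -0.45 and -0.03. Other probe sets stood at -0.16 for Col1a1, -0.77 for Dcn (dim), 0.25 for Col3a1 and -0.16 and 1.06 for Pdgfra. The other Myh6 probe set stood at 0.15, while those of Tnnt2 and Ryr2 were below 0. The fibroblast sum was 25592 and 26061 in the high RVSP mice, 26281 and 25208 in the normal RVSP mice and 24419 and 24236 in the control mice. The cardiac muscle sum was 15553 and 8234 in the high RVSP mice, 22486 and 16586 in the normal RVSP mice and 19415 and 16624 in the control mice. All 4 R899X mice lay above both controls in the fibroblast sum, and both high RVSP mice lay below every other mouse in the cardiac one. No marker of these lists was at 0, and their part in the values of the serotonin-responsive list was not tested. S100a4, a calcium-binding protein that serotonin induces in human pulmonary artery smooth muscle cells, gave 1109 and 949 in the high RVSP mice, 1517 and 1034 in the normal RVSP mice and 755 and 781 in the control mice. All 4 R899X mice lay above both controls, which for the high RVSP mice alone was so in 19.1% of all tested probe sets. Normal RVSP differed from control by 0.69 ± 0.21 (adjusted p = 0.987) and high RVSP by 0.41 ± 0.21 (adjusted p = 0.864). Thbs1, thrombospondin 1, which activates latent TGF-beta, gave 1137 and 997 in the high RVSP mice, 478 and 802 in the normal RVSP mice and 385 and 790 in the control mice. Both high RVSP mice lay above the rest, with a difference from control of 0.93 ± 0.35 (adjusted p = 0.857), and its other probe set stood at 1.01. Timp1, an inhibitor of matrix metalloproteinases, stood at 0.47 ± 0.27 in normal RVSP against control (adjusted p = 0.987). The immediate early gene Fos gave 10272 and 8075 in the high RVSP mice, 4732 and 10319 in the normal RVSP mice and 5218 and 6615 in the control mice. For Thbs1, Fos, Egr1 and Ccnd1 the lowest pair of values was that of normal RVSP 1 and control 1, the arrays that stood apart. Egr1 read 5882 and 5722 on them, against 8008 to 12670 on the others, and Ccnd1 2667 and 2552, against 3872 to 4780. These genes are among the 7 above 0 in high RVSP, and the list median was not computed without these arrays.

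**Figure D4:**
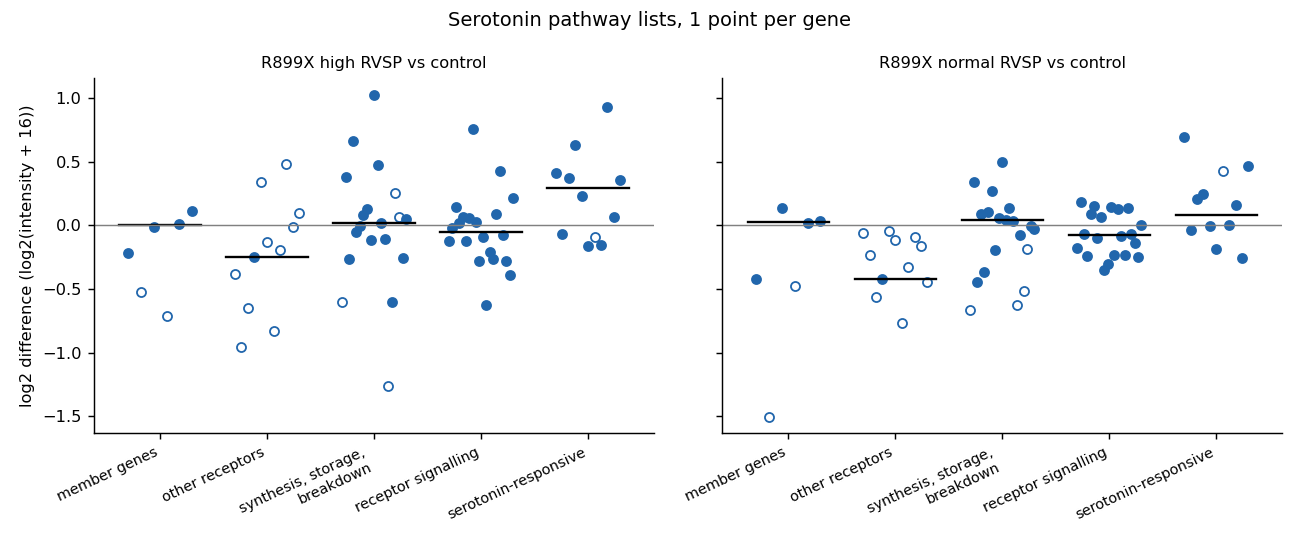
Log2 differences from control (y axis, on the log2(intensity + 16) scale) of the member genes and of 4 wider serotonin lists (x axis), 1 point per gene by its brightest probe set, in high and normal RVSP mice; filled points are above the filter, open points below it, and bars are medians of the filled points. The medians lie close to 0 except for the single receptor above the filter, Htr2c, and for the serotonin-responsive list in high RVSP at 0.29.

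The genes whose values ran closest to each member over the 6 arrays were found among 12086 tested genes, by Pearson correlation of the log2 values. For Slc6a4 these were Tnfrsf22, a TNF receptor family member, at 0.988 and Cecr2, a chromatin remodelling factor, at 0.982. Tnfrsf22 gave 109 and 110 in the high RVSP mice, 96.6 and 77.0 in the normal RVSP mice and 146 and 117 in the control mice. For the brighter Maoa probe set they were Pdcd2l at 0.994 and Nudt2, a nucleotide hydrolase, at 0.993, and for Maob Xpo1, a nuclear export receptor, at 0.986 and Tgfbr1, a TGF-beta receptor, at 0.974. For the brighter Htr1b probe set they were Nek5, a kinase, at 0.993 and Ranbp2, a nuclear pore protein, at 0.991. These correlations rest on 6 points that share their scaling and were picked as the highest of many, so they are a description only.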

How the data were processed

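The deposited values are intensities on a linear scale, 1 per probe set and array; no label or header names the algorithm that made them. The deposited intensities share a common scaling, since the mean after trimming 2% at each end is 500.0 on every array. Per the labels' protocols, the right lung was flushed with saline and RNA was purified on silica columns. Groups come from the sample titles, replicate numbers follow accession order, and no batch is named.

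Values were turned into log2(intensity + 16), which understates differences of dim probe sets. The 64 control probe sets and the lower 40% by mean (18015) were left out, and 27022 were tested. All 6 arrays entered a single limma model (version 3.58.1, under R 4.3.3) with a mean for each group (moderated statistics with an intensity trend, two-sided, Benjamini-Hochberg at 0.05), after tests on simulated data. The dim Tph1 and Htr2b were read from the same fit without the filter (45037 probe sets). Genes were named from the platform annotation, with single symbols for 34945 probe sets.

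The members and gene lists were chosen with earlier results of these data known. Named genes were all members and, from each wider list, genes among the 3 largest differences per comparison, not all of which are described. Other genes of these lists are named for their order over the arrays or for their other probe sets. From marker lists up to 2 genes were planned, and more are named where markers or their probe sets differed. Alternatives were a pseudocount of 1, no filter, quantile normalization, only the groups compared, and leaving out arrays.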

Additional observations from a re-analysis of the deposited data

How the results depend on the processing

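Over pseudocount, filter, quantile normalization and a fit of only the groups compared, 1 of 112 member differences turned its sign and 0 were called. It was Maoa 1428667_at in high against normal RVSP, at 0.0085 after quantile normalization. Leaving out 1 array turned the sign of 16 of the 32 member differences at least once and called 0 of them (smallest adjusted p = 0.261, for Htr1b 1422288_at), with a lone array assumed to vary like the other groups. Slc6a4 and Htr2b kept their direction in every comparison under all of these. Where groups do not overlap, leaving out 1 array cannot turn the sign. This was the case for Slc6a4 in every comparison and for Htr2b in those with control, so their kept direction there adds nothing to the separation.

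For the differences that turned their sign, the ranges without 1 array were as follows. Htr1b 1442077_at spanned -0.25 to 0.23 in high RVSP against control, -0.059 to 0.33 in normal RVSP against control, -0.38 to 0.091 in high against normal RVSP and -0.13 to 0.26 in all R899X against control. Htr1b 1422288_at spanned -0.049 to 1.36 in high against normal RVSP. Maoa 1428667_at spanned -0.23 to 0.26, -0.26 to 0.30, -0.28 to 0.28 and -0.23 to 0.26 in the same 4 comparisons. Maoa 1442676_at spanned -0.36 to 0.77 in normal RVSP against control, -0.0022 to 1.13 in high against normal RVSP and -0.0020 to 0.98 in all R899X against control. Maob spanned -0.0089 to 0.24 in high RVSP against control, -0.087 to 0.16 in normal RVSP against control and -0.048 to 0.20 in all R899X against control. Tph1 spanned -1.06 to 0.018 in high RVSP against control. Among those that kept their sign, Tph1 spanned 0.44 to 1.52 in high against normal RVSP and -1.44 to -0.59 in all R899X against control. Htr2b spanned -0.67 to -0.28 in normal RVSP against control and -0.42 to -0.036 in high against normal RVSP. Slc6a4 spanned -0.31 to -0.13 in high RVSP against control and 0.11 to 0.29 in high against normal RVSP. Htr1b 1422288_at spanned -1.29 to -0.10, -2.06 to -0.65 and -1.62 to -0.43 in high RVSP, normal RVSP and all R899X against control, Maoa 1442676_at 0.28 to 1.26 in high RVSP against control and Maob 0.031 to 0.13 in high against normal RVSP.

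Over all probe sets, 1 was called in high RVSP against control with only those groups. Without 1 array the counts spanned 0 to 2 in high RVSP against control, 0 to 4 in normal RVSP against control, 0 to 43 in high against normal RVSP and 0 to 6 in all R899X against control. Without control 1 and normal RVSP 1 together, chosen after seeing the data, they were 313, 131, 56 and 228 in that order, with 1 array in both reduced groups and so no spread of their own. No member was among them, and 8 member differences turned their sign: Htr1b 1442077_at at -0.080 in normal RVSP and -0.14 in all R899X against control, Htr1b 1422288_at at -0.049 in high against normal RVSP, Maoa 1442676_at at -0.0022 there, and Maoa 1428667_at at -0.23, -0.51, 0.28 and -0.37 in the same 4 comparisons. The cause was not tested. No paired analysis was possible because the labels give no replicate numbers. Array medians spanned 0.127 on the log2 scale.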

Other observations

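Cpa3, carboxypeptidase A3 of mast cells, gave 86.2 and 105 in the high RVSP mice, 35.2 and 97.3 in the normal RVSP mice and 140 and 100.2 in the control mice. Htr1b 1422288_at, with 84.1 and 103 in the high RVSP mice, 26.5 and 96.8 in the normal RVSP mice and 251 and 101 in the control mice, had its highest value on control 1 and its lowest on normal RVSP 1 as Cpa3 did. Of 9 mast cell markers 3 had this order, Cpa3, Ms4a2 and the dim Fcer1a. Ms4a2 gave 157 and 148 in the high RVSP mice, 102 and 107 in the normal RVSP mice and 220 and 133 in the control mice, and Fcer1a gave 59.2 and 47.2 in the high RVSP mice, 41.3 and 65.9 in the normal RVSP mice and 71.7 and 52.7 in the control mice. The other 6 did not, among them Hdc with 1965 and 2062 in the high RVSP mice, 1571 and 2172 in the normal RVSP mice and 2047 and 1532 in the control mice. Htr1b and Cpa3 were set side by side because their likeness was noticed after the values were seen, and it was not tested.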
